A study of Mus musculus with 13 samples.

Results

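Conventional dendritic cells (cDC) take up antigen and present it to T cells, and 8 genes that mark these cells or steer their development were followed through bone marrow: Xcr1, Clec9a, Batf3, Cd209a, Itgax, Zbtb46, Ccr7 and Flt3. They were chosen by name, each had 1 row on the array, and they were 8 of 19505 gene symbols measured. RNA of complete marrow was profiled on 13 Affymetrix expression arrays in 3 groups. The group BRSST+sgEzh2 had 4 arrays, BRSST+sgLuc had 5 and sgLuc alone had 4.

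In all 3 groups, LSK cells (a marrow fraction rich in blood stem and progenitor cells) of Cas9 knock-in mice had received guide RNAs, and 24 h later were given to C57Bl/6J mice irradiated with 7 Gy. The labels do not say which guides BRSST stands for, sgEzh2 is a guide against the Polycomb methyltransferase gene Ezh2, and sgLuc is the control guide. The host keeps some cells of its own after irradiation, so each array can hold RNA of edited, unedited and host cells. Marrow was taken when mice showed signs of leukemia or else at 6 months, and which case applies is not given per sample. The labels give no age of the mice and do not tie arrays to single mice, so the p-values cover only how much these samples vary, a spread that may be technical. The serial numbers in the sample descriptions of sgLuc do not follow on from those of the other groups, so sgLuc and a batch of arrays, if there was one, cannot be told apart.

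Dendritic cells arise in marrow from progenitors that carry the receptor Flt3, and its ligand drives their growth. They divide into cDC1, which need the transcription factors Irf8 and Batf3 and cross-present antigen to CD8 T cells, and cDC2, which use Irf4 and present mainly to CD4 T cells. Plasmacytoid dendritic cells, which secrete type I interferon, are a separate lineage. Marrow holds few mature cDC, so their genes are read against a large excess of other cells.

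Values are log2 signals, and a difference of 1 is a doubling of signal. A gene rose or fell where the limma p-value, adjusted by Benjamini-Hochberg over all 19505 symbols, was under 0.05. Signals of different probes cannot be set against each other as levels of their genes. In bulk marrow, fewer cells of a type and less RNA per cell cannot be told apart.

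Clec9a, Itgax and Cd209a were lower in marrow with BRSST guides, whether or not sgEzh2 was added, and Clec9a and Itgax passed the test in both comparisons with sgLuc. Zbtb46, Ccr7 and Flt3 passed in none. Between the BRSST groups no member passed. The promoter windows of the 3 genes that fell, and of Batf3, the factor of the cDC1 branch, are shown because the text returns to the letters they hold. They are RefSeq sequences of GRCm38.p6, read 5′ to 3′ on the gene's strand from 250 bases before to 50 bases after the start. Capitals mark a PU.1 motif (GAGGAAG), an AP-1 motif (TGANTCA) or a RUNX motif (TGTGGT).
Clec9a (chr6:129408612-129408911, plus strand): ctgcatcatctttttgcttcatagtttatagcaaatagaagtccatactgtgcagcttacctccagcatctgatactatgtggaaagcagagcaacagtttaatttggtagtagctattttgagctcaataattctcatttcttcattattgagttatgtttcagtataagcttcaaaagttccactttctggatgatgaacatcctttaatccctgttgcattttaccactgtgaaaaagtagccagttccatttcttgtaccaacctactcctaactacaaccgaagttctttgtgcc
Itgax (chr7:128129300-128129599, plus strand): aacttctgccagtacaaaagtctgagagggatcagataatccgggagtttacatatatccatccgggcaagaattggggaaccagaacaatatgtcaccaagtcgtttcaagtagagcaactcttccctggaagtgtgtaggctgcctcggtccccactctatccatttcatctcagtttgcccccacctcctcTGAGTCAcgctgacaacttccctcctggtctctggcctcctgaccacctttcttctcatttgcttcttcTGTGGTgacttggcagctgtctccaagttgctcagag
Cd209a (chr8:3748935-3749234, minus strand): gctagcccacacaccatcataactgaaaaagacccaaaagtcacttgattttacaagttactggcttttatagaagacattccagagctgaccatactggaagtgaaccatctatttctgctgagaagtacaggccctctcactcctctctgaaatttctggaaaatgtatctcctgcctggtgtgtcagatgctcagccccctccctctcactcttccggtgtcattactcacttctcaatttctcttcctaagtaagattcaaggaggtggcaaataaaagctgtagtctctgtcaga
Batf3 (chr1:191098164-191098463, plus strand): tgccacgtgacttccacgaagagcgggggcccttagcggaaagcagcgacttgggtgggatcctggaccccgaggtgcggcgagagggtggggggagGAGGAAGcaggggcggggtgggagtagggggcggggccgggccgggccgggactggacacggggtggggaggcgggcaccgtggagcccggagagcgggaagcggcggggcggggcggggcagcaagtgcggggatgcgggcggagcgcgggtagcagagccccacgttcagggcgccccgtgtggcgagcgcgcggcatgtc

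RefSeq windows were matched for 7 of the 8 members. Both strands were searched for those 3 motifs and for an interferon regulatory factor element, written as GAAA, 2 bases of any kind and GAAA again. The AP-1 letters stood at −56 in Itgax and at −61 in Zbtb46, counted from −1 before the start, and in 7.81% of all 32851 promoter windows. Batf proteins pair with Jun proteins at such letters. The PU.1 letters stood at −153 in Batf3 and in 13.6% of all windows, and the RUNX letters at +14 in Itgax and in 16.8%. The GAAA pair was in none of the 7 windows and in 3.44% of all. GC content was 37% for Clec9a, 50% for Itgax, 44% for Cd209a and 75.7% for Batf3, beside a median of 52.7% over all windows. Clec9a, Cd209a, Xcr1 and Flt3 held none of the 4 motifs, so none was common to the 3 genes that fell.

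The added guide targets Ezh2, whose mean log2 signal was 8.78 ± 0.50 in BRSST+sgEzh2 (SD, n = 4), 9.82 ± 0.50 in BRSST+sgLuc (n = 5) and 10.35 ± 0.28 in sgLuc (n = 4). The BRSST+sgEzh2 range of 8.08 to 9.22 overlapped the BRSST+sgLuc range of 9.15 to 10.46, with a difference of -1.05 ± 0.26 (SE, limma adjusted p = 0.0856). With single arrays left out, the limma adjusted p ran from 0.0383, without BRSST+sgLuc replicate 5, to 0.211. A guide edit need not lower the transcript, so this checks the labels only in part. Array medians ran from 7.19 to 7.32. Of 25 genes of tissues outside marrow, the mean signals over all 13 arrays ran from 4.74 to 8.21 with a median of 6.36. This shows what unexpressed genes can read on this array. The mean signals of Xcr1 in every group (5.58 to 5.98), of Clec9a in both BRSST groups (4.91 with BRSST+sgEzh2 and 5.27 with BRSST+sgLuc), and of Itgax with BRSST+sgLuc (6.01) lay below that median. The files used hold no detection calls, so a fold change onto signals this low is the ratio of the measured signals, and the change in RNA may be larger. Zbtb46 and Flt3 lay above 21 of the 25 genes in every group, Itgax above 14 with BRSST+sgEzh2, 6 with BRSST+sgLuc and 24 with sgLuc, and Ccr7 above all 25 in every group. The mean signal of Y-linked genes was high on 2 of 4 BRSST+sgEzh2, 2 of 5 BRSST+sgLuc and 4 of 4 sgLuc arrays. With this class as a covariate no member's call changed.

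Clec9a encodes a lectin of cDC1 that binds actin exposed by dead cells. Its log2 signals were 4.55, 4.80, 4.78 and 5.51 with BRSST+sgEzh2, then 4.72, 7.04, 5.35, 4.75 and 4.50 with BRSST+sgLuc, and 7.02, 7.28, 6.88 and 6.73 with sgLuc. All 4 BRSST+sgEzh2 arrays lay below every sgLuc array. Of the BRSST+sgLuc arrays, 4 did so too, while replicate 2 read as high as the sgLuc arrays, so these groups overlapped. Against sgLuc, the measured Clec9a signal fell 4.19-fold with BRSST+sgEzh2, onto a mean above 2 of the 25 genes of other tissues (log2 -2.07 ± 0.42, SE, limma adjusted p = 0.00891). It fell 3.26-fold with BRSST+sgLuc (-1.71 ± 0.40, limma adjusted p = 0.0116). Leaving out BRSST+sgLuc replicate 2 made the difference -2.15 (adjusted p = 3.39e-05). BRSST+sgEzh2 against BRSST+sgLuc gave -0.36 ± 0.40 (95% interval -1.21 to 0.49), and 0.081 without that array.

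Xcr1 encodes the receptor for the chemokine Xcl1 and is confined to cDC1 among dendritic cells. Its signals were 5.32, 5.41, 5.45 and 6.16 with BRSST+sgEzh2, then 5.78, 7.20, 5.49, 5.57 and 5.19 with BRSST+sgLuc, and 6.25, 5.91, 5.98 and 5.76 with sgLuc. The highest of all 13 arrays was BRSST+sgLuc replicate 2, and the groups overlapped in every comparison. The difference from sgLuc was -0.39 ± 0.33 with BRSST+sgEzh2 (95% interval -1.10 to 0.32, limma adjusted p = 0.661) and -0.13 ± 0.31 with BRSST+sgLuc (-0.80 to 0.54, limma adjusted p = 0.864). Without BRSST+sgLuc replicate 5 the second value was 0.034, and over all arrays left out in turn it ran from -0.47 to 0.034. These signals are near those of genes of other tissues, which limits what a difference in Xcr1 can show.

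Batf3, the transcription factor that cDC1 need to persist, read 7.43, 7.24, 7.61 and 7.54 with BRSST+sgEzh2. It read 7.37, 8.42, 7.66, 7.74 and 7.48 with BRSST+sgLuc and 7.91, 7.76, 7.86 and 8.19 with sgLuc. Every BRSST+sgEzh2 array was below every sgLuc array, while BRSST+sgLuc replicate 2 was above all of them. BRSST+sgEzh2 differed from sgLuc by -0.47 ± 0.19 (95% interval -0.87 to -0.07), which did not pass (limma adjusted p = 0.195). It passed with array quality weights (0.0413) and with only those 2 groups in the fit (0.0406). BRSST+sgLuc differed from sgLuc by -0.20 ± 0.18 (-0.58 to 0.19), limma adjusted p = 0.585.

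**Figure D1:**
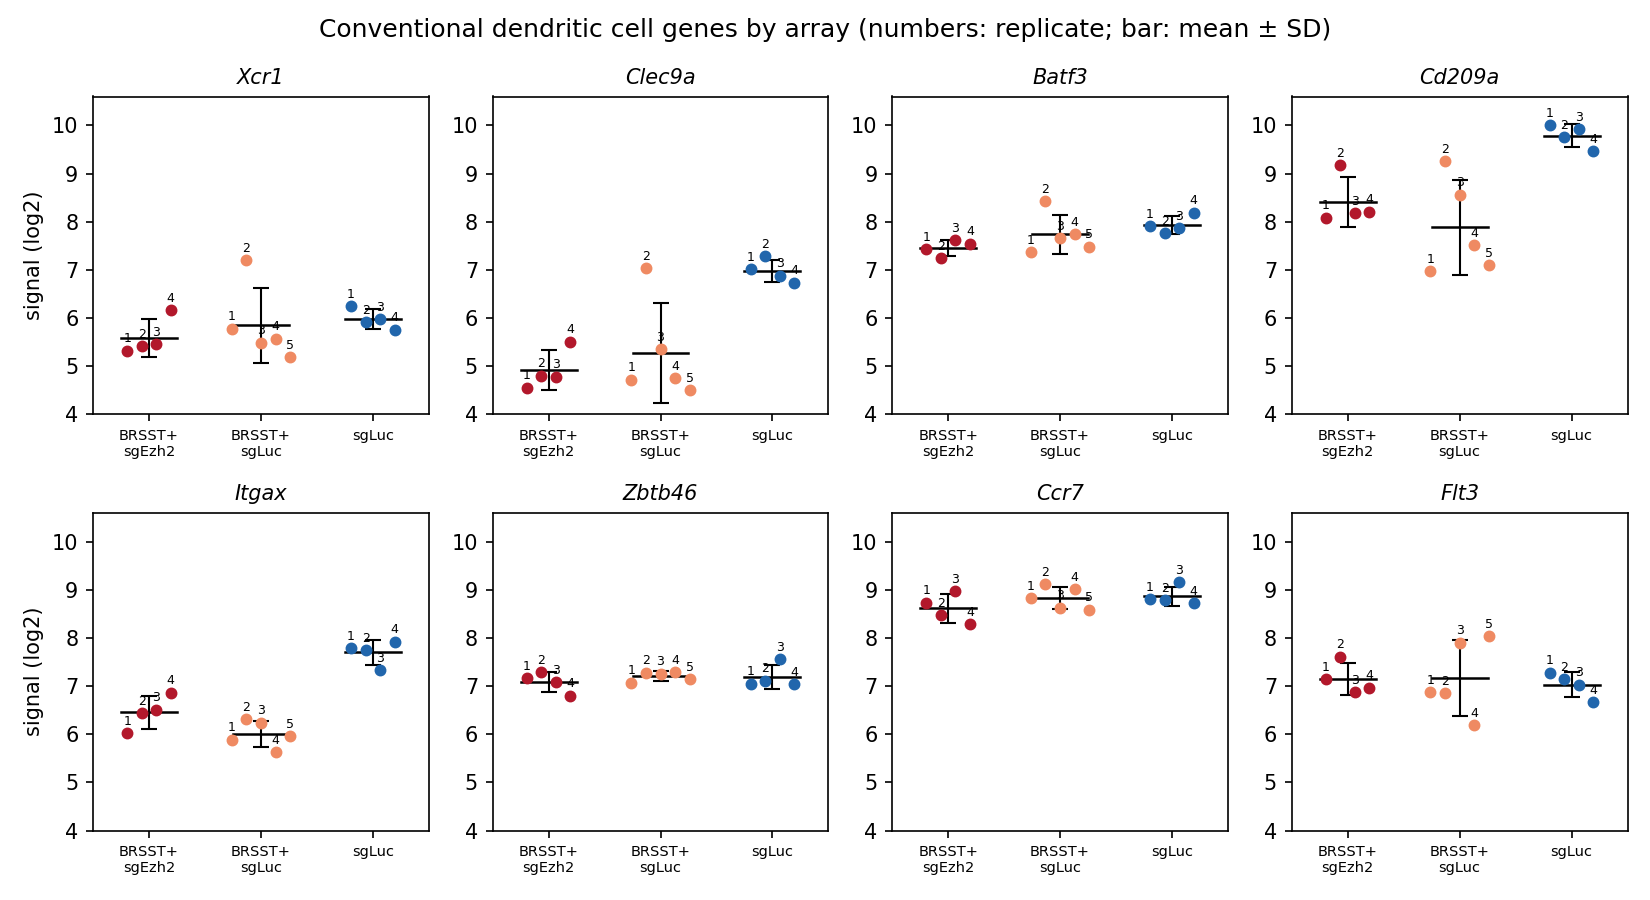
Log2 signal (y axis) of the 8 genes on each array, with replicate numbers, the mean and the SD (BRSST+sgEzh2 n = 4, BRSST+sgLuc n = 5, sgLuc n = 4). Itgax, Clec9a and Cd209a sit highest in sgLuc, and Zbtb46, Ccr7 and Flt3 overlap in all groups. BRSST+sgLuc replicate 2 stands above its group for Xcr1, Clec9a, Batf3 and Cd209a.

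Cd209a encodes the mouse relative of the lectin DC-SIGN and marks monocyte-derived dendritic cells and a subset of cDC2. Its signals were 8.08, 9.18, 8.17 and 8.21 with BRSST+sgEzh2, then 6.97, 9.26, 8.56, 7.51 and 7.10 with BRSST+sgLuc, and 10.00, 9.75, 9.92 and 9.47 with sgLuc. All 9 arrays with BRSST guides lay below all 4 sgLuc arrays, and those of the 2 BRSST groups overlapped. Cd209a fell 3.75-fold with BRSST+sgLuc against sgLuc (-1.91 ± 0.39, limma adjusted p = 0.00587). With BRSST+sgEzh2 the difference was -1.37 ± 0.42 (95% interval -2.26 to -0.49), which did not pass (limma adjusted p = 0.0736). It passed with array quality weights (0.00814) and with only those 2 groups in the fit (0.00438). It also passed under the stricter filter on low signals (0.0467), which Cd209a clears only because of its high sgLuc signals. That last value is therefore no support for the fall. The SD of 0.99 within BRSST+sgLuc was larger than that of 99.3% of all symbols.

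Itgax encodes CD11c, an integrin chain on dendritic cells that some monocytes, macrophages and natural killer cells carry too. Its signals were 6.02, 6.44, 6.51 and 6.86 with BRSST+sgEzh2, then 5.89, 6.31, 6.24, 5.63 and 5.96 with BRSST+sgLuc, and 7.79, 7.75, 7.33 and 7.92 with sgLuc. Every sgLuc array was above every array with BRSST guides, BRSST+sgLuc replicate 2 included. Itgax fell 2.36-fold with BRSST+sgEzh2 (-1.24 ± 0.19, limma adjusted p = 0.00118) and 3.23-fold with BRSST+sgLuc (-1.69 ± 0.18, limma adjusted p = 5.61e-05), each against sgLuc. The mean with BRSST+sgLuc was above 6 of the 25 genes of other tissues, so that fold too is one of measured signals. Of the 8 members it had the smallest p between BRSST+sgEzh2 and BRSST+sgLuc, where it was higher by 0.45 ± 0.18 (95% interval 0.07 to 0.83) and did not pass (limma adjusted p = 0.335, exact two-sided permutation p = 0.0794 over 126 splits).

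Zbtb46 encodes a transcription factor that among immune cells marks cDC and their committed precursors. It read 7.17, 7.29, 7.08 and 6.80 with BRSST+sgEzh2, 7.07, 7.28, 7.26, 7.29 and 7.15 with BRSST+sgLuc, and 7.05, 7.11, 7.56 and 7.04 with sgLuc. The groups lay on top of each other, with differences from sgLuc of -0.10 ± 0.14 with BRSST+sgEzh2 (95% interval -0.39 to 0.18) and 0.02 ± 0.13 with BRSST+sgLuc (-0.25 to 0.29). The first turned to 0.019 without sgLuc replicate 3 and the second to -0.030 without sgLuc replicate 4. The Zbtb46 means of all 3 groups lay within the range of the genes of other tissues (4.74 to 8.21). That limits what the lack of a difference can show. On sgLuc replicate 3, which held its highest value, 18 of the 25 genes of other tissues also had their group's highest signal, and 40.9% of all symbols did. The part of this in the Zbtb46 value was not tested.

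Ccr7, the chemokine receptor that takes mature dendritic cells to lymph nodes and is found on naive T and B cells too, read 8.73, 8.47, 8.97 and 8.29 with BRSST+sgEzh2. It read 8.83, 9.11, 8.63, 9.01 and 8.59 with BRSST+sgLuc and 8.80, 8.78, 9.16 and 8.72 with sgLuc. All groups overlapped, and the differences from sgLuc were -0.25 ± 0.16 with BRSST+sgEzh2 (95% interval -0.60 to 0.10) and -0.03 ± 0.16 with BRSST+sgLuc (-0.36 to 0.30). The second turned to 0.015 under quantile normalization and to 0.0087 with equal array medians. Without sgLuc replicate 3 it was 0.067. That array held the highest Ccr7 signal of its group, as it did for Zbtb46 and many other symbols. The part of this in the Ccr7 value was not tested.

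Flt3, the receptor of dendritic cell and lymphoid progenitors and a gene often mutated in leukemia, read 7.14, 7.61, 6.87 and 6.97 with BRSST+sgEzh2. It read 6.87, 6.85, 7.90, 6.19 and 8.04 with BRSST+sgLuc and 7.28, 7.14, 7.03 and 6.67 with sgLuc. BRSST+sgLuc held both the highest and the lowest of the 13 values, with replicates 3 and 5 above every other array and replicate 4 below, and its SD of 0.78 was larger than that of 98.3% of symbols. The differences from sgLuc were 0.12 ± 0.33 with BRSST+sgEzh2 (95% interval -0.58 to 0.82) and 0.14 ± 0.31 with BRSST+sgLuc (-0.52 to 0.81). Each changed sign in some fits: without BRSST+sgEzh2 replicate 2 the first was -0.040, and without BRSST+sgLuc replicate 5 the second was -0.076. Its ligand gene Flt3l differed from sgLuc by -0.31 ± 0.14 with BRSST+sgEzh2 and by -0.29 ± 0.14 with BRSST+sgLuc, and passed in neither (limma adjusted p = 0.288 and 0.215).

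**Figure D2:**
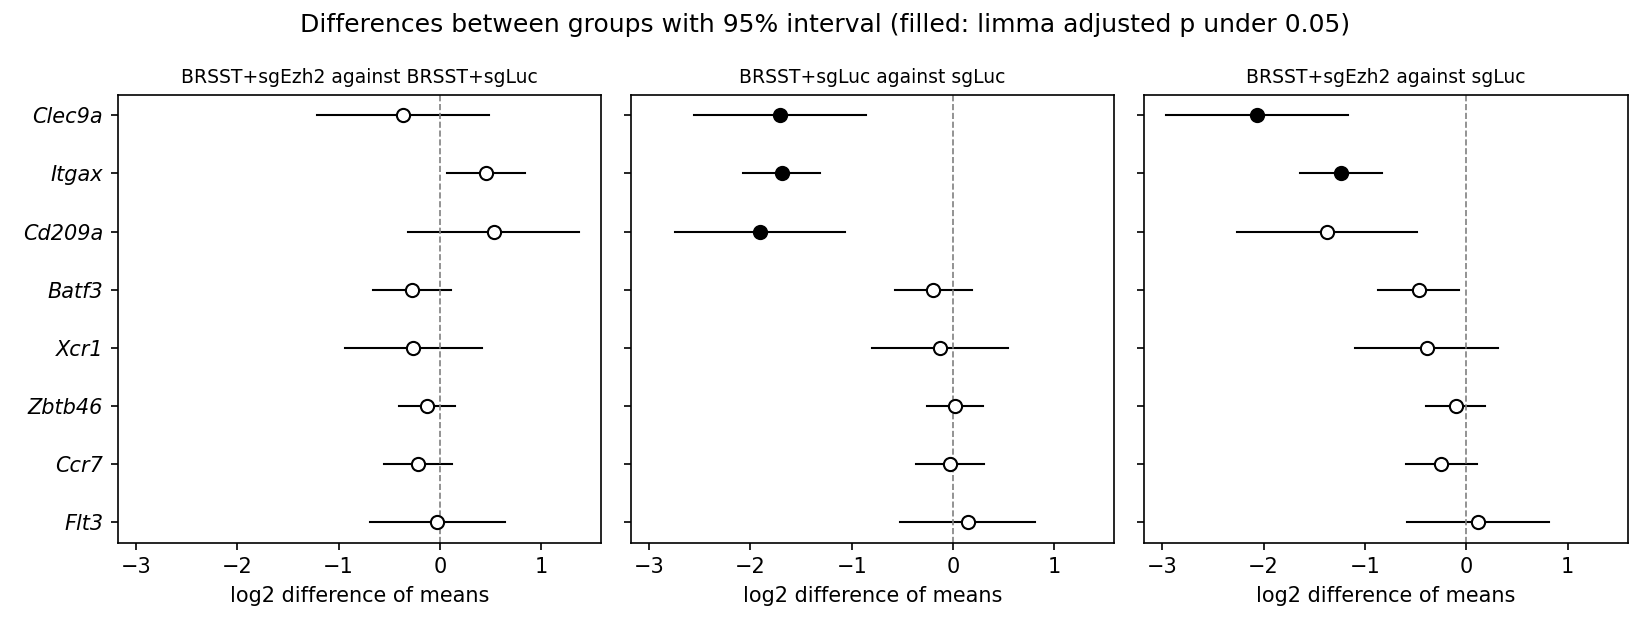
Log2 difference of group means (x axis) with its 95% interval for each gene in the 3 comparisons, first-named group minus the second, with filled points at limma adjusted p under 0.05. Filled points are Clec9a, Itgax and Cd209a for BRSST+sgLuc against sgLuc, Clec9a and Itgax for BRSST+sgEzh2 against sgLuc, and none between the BRSST groups.

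Adding the Ezh2 guide is the difference between BRSST+sgEzh2 and BRSST+sgLuc. There 0 of 8 members passed in limma, where 0.656% of all symbols did, 0.082% lower. At an unadjusted p under 0.05 there was 1, Itgax. In 0 of 8 did the groups not overlap, against 3.24% of all symbols, 1.36% lower. Between BRSST+sgLuc and sgLuc, which asks what the BRSST guides change, 3 of 8 members fell, where 6.49% of all symbols did, and 0 rose, where 5.43% did (11.9% in either direction). Groups did not overlap for 2 of the 8, both lower, where 6.32% of symbols were lower in that way (12.3% in either direction). Between BRSST+sgEzh2 and sgLuc, 2 of 8 fell, where 2.39% of all symbols did, and 0 rose, where 2.77% did (5.16% in either direction). There 4 of 8 were lower without overlap (Clec9a, Itgax, Cd209a and Batf3), where 6.16% of symbols were (15.1% in either direction).

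The median difference of the members was -0.17 for BRSST+sgEzh2 against BRSST+sgLuc, -0.16 for BRSST+sgLuc against sgLuc and -0.43 for BRSST+sgEzh2 against sgLuc, where the medians of all symbols were -0.03, 0.04 and 0.00 in these comparisons. Both comparisons with sgLuc use the same 4 control arrays, so their values are set side by side and not counted as repeats. By exact two-sided permutation, the smallest p possible against sgLuc is 0.0286 with BRSST+sgEzh2 and 0.0159 with BRSST+sgLuc. Clec9a, Itgax, Cd209a and Batf3 reached it with BRSST+sgEzh2, and Itgax and Cd209a with BRSST+sgLuc, where Clec9a gave an exact p of 0.0635. Adjusted over the 24 tests, the smallest exact permutation p was 0.114, so none passed.

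BRSST+sgLuc replicate 2 had its group's highest signal for 6 of the 8 members, for 8 of 16 other cDC1 genes, 7 of 16 cDC2 genes, 12 of 15 plasmacytoid genes and 10 of 10 genes of MHC class II presentation. It held the highest signal of its group for 26.3% of all symbols and for 9 of 25 genes of other tissues. Tlr3, a sensor of double-stranded RNA that is high in cDC1, read 6.62 there against 4.90 on the next array of the group, and Cadm1, an adhesion molecule of cDC1, read 7.55 against 6.49. Both genes were also high on BRSST+sgEzh2 replicate 4, at 6.52 against 4.79 and at 7.46 against 6.56, and were chosen after their values were seen. On that array Xcr1 (6.16) and Clec9a (5.51) were the highest of their group too, as were 9 of 16 cDC1 and 10 of 16 cDC2 genes, beside 27.9% of all symbols. Of plasmacytoid genes 2 of 15, and of MHC class II genes 1 of 10, were highest there. Monocyte and macrophage genes also read high on it, with a mean of 9.34 over 18 genes where its group's median was 8.85. The part of monocytes and macrophages in these values was not tested.

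Once group means were removed, the correlation of Xcr1 with Clec9a over the 13 arrays was 0.92, and those of Batf3 with Clec9a and with Xcr1 were 0.75 and 0.72. Much of this rested on BRSST+sgLuc replicate 2. Without it, a setting chosen after seeing the data, the correlation of Xcr1 with Clec9a over 12 arrays was 0.64, and those of Batf3 with Clec9a and with Xcr1 were 0.08 and 0.02. Most signals of Xcr1 and Clec9a that remained lay among those of genes of other tissues. Cd209a correlated with Clec9a at 0.77, and at 0.46 without that array, while Flt3 had -0.54 with Ccr7, and -0.50 without it. These are descriptions over arrays that share groups and normalization. BRSST+sgLuc replicate 2 also read high for B lineage genes, with a mean of 8.79 over 14 genes where its group's median was 6.90, and for natural killer cell genes, with 8.24 over 9 genes where the median was 6.29. The part of these cells in the dendritic cell values was not tested.

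**Figure D3:**
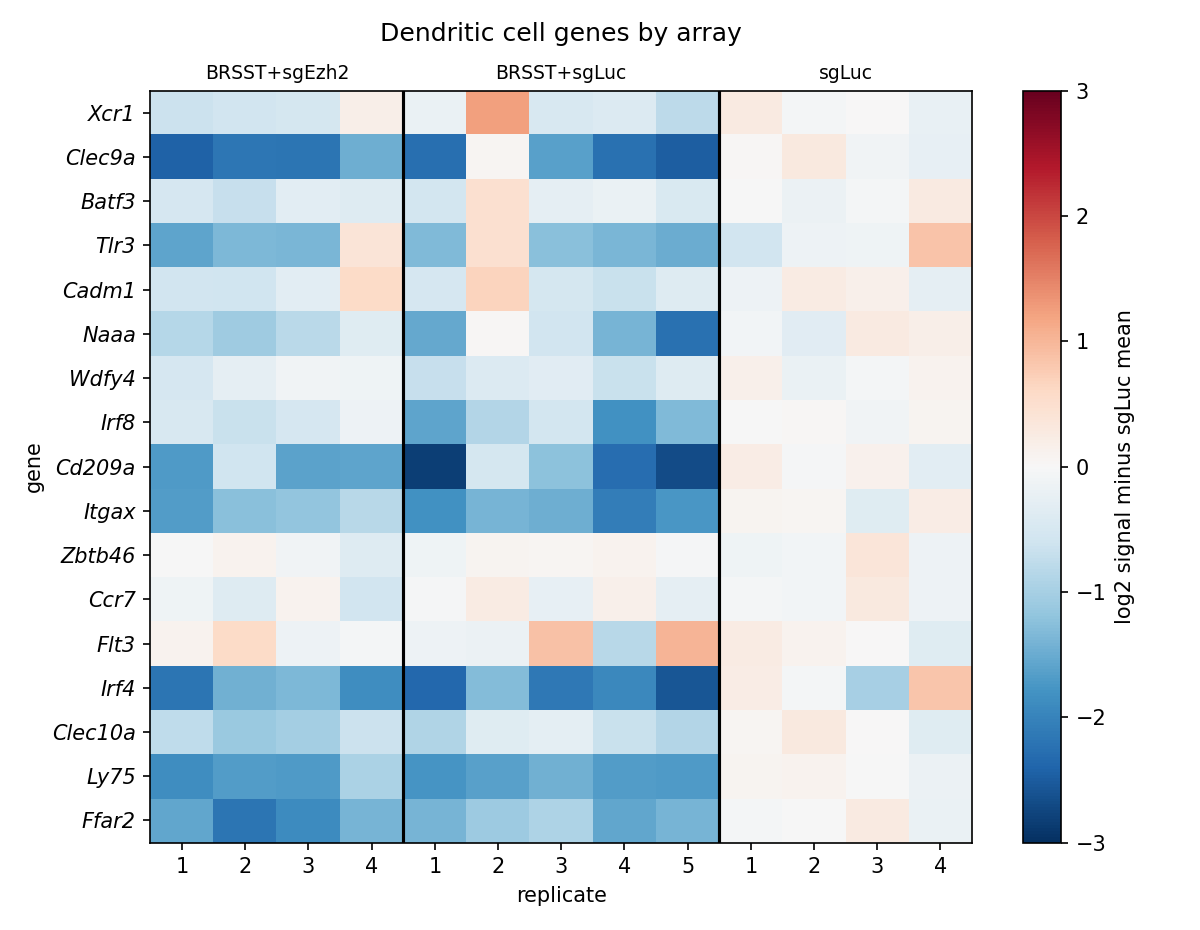
Log2 signal of each gene (rows) on each array (columns) minus the gene's sgLuc mean, with red above and blue below it. BRSST+sgLuc replicate 2 is red for Xcr1, Batf3, Tlr3 and Cadm1 and near the sgLuc mean for Clec9a, and Itgax, Ly75, Irf4 and Ffar2 are blue on every array with BRSST guides.

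Counts in this and the later lists are to be read beside the shares of all symbols. Against sgLuc, 2.39% of symbols fell and 2.77% rose with BRSST+sgEzh2, and 6.49% fell and 5.43% rose with BRSST+sgLuc. Among 16 other genes of the cDC1 branch, 3 fell and 2 rose with BRSST+sgLuc against sgLuc, with a median of -0.13. Irf8, the factor that sets up cDC1 and also acts in B cells and monocytes, read 9.26, 9.06, 9.24 and 9.58 with BRSST+sgEzh2. It read 8.15, 8.85, 9.18, 7.92 and 8.41 with BRSST+sgLuc and 9.72, 9.77, 9.62 and 9.82 with sgLuc. All arrays with BRSST guides were below all sgLuc arrays, and the BRSST groups overlapped. Irf8 fell 2.35-fold with BRSST+sgLuc against sgLuc (-1.23 ± 0.21, limma adjusted p = 0.00159). With BRSST+sgEzh2 it differed from sgLuc by -0.45 ± 0.22 (limma adjusted p = 0.318), which passed with the Y-linked class as a covariate (0.0368) and with only those 2 groups (0.0450). From BRSST+sgLuc it differed by 0.79 ± 0.21 (limma adjusted p = 0.111), which passed without BRSST+sgLuc replicate 3 (0.0136), with array weights (0.0184) and with the Y-linked class (0.0211). With single arrays left out, the limma adjusted p ran up to 0.576 against sgLuc and up to 0.309 against BRSST+sgLuc.

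Wdfy4, which cDC1 need for cross-presentation, fell by 0.49 ± 0.12 with BRSST+sgLuc against sgLuc (limma adjusted p = 0.0149, and 0.0635 without sgLuc replicate 1). Naaa, a lysosomal amidase high in cDC1, fell by 1.14 ± 0.34 (limma adjusted p = 0.0415). Its call was lost without BRSST+sgLuc replicate 1, 4 or 5 or any single sgLuc array, with adjusted p up to 0.103. The 2 that rose were Id2, an inhibitor of E proteins, by 0.70 ± 0.16, and Nfil3, which acts upstream of cDC1 development, by 0.57 ± 0.12 (limma adjusted p = 0.0117 and 0.00778). Both factors act in many other blood cells.

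With BRSST+sgEzh2 against sgLuc, 0 of the 16 fell and 2 rose, with a median of -0.18. They were Rab7b, a lysosomal trafficking protein, by 0.97 ± 0.16 (limma adjusted p = 0.00209), and Id2, by 0.64 ± 0.17 (0.0463). The Id2 call was lost without BRSST+sgEzh2 replicate 1, 3 or 4 or any sgLuc array (up to 0.123). Between the BRSST groups, 0 of the 16 cDC1 genes passed in limma.

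Genes of the cDC2 branch were lower more often than they were higher. With BRSST+sgLuc against sgLuc 6 of 16 fell and 0 rose (median -0.62), and with BRSST+sgEzh2 5 fell and 0 rose (median -0.28). Irf4, the factor of cDC2 that plasma cells also need, averaged 6.95 with BRSST+sgEzh2, 6.60 with BRSST+sgLuc and 8.67 with sgLuc. It fell 3.28-fold with BRSST+sgEzh2 (-1.72 ± 0.34, limma adjusted p = 0.00747) and 4.18-fold with BRSST+sgLuc (-2.06 ± 0.32, limma adjusted p = 0.000934). Ffar2, a receptor for short-chain fatty acids, averaged 9.27 with BRSST+sgEzh2, 9.76 with BRSST+sgLuc and 11.03 with sgLuc. It fell 3.39-fold with BRSST+sgEzh2 (limma adjusted p = 3.46e-05) and 2.42-fold with BRSST+sgLuc (limma adjusted p = 0.00031). The part of cells other than cDC2 in the Ffar2 signal was not tested.

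Cd4, carried by cDC2 subsets and by T cells, fell by 0.82 ± 0.19 with BRSST+sgEzh2 and by 0.89 ± 0.18 with BRSST+sgLuc, each against sgLuc (limma adjusted p = 0.0206 and 0.00518). The first call was lost without BRSST+sgEzh2 replicate 1 or 4 or sgLuc replicate 1 or 2 (up to 0.0822). Clec10a, a galactose-binding lectin of cDC2, fell by 0.89 ± 0.17 with BRSST+sgEzh2 and by 0.62 ± 0.16 with BRSST+sgLuc (limma adjusted p = 0.00685 and 0.0228). The second call was lost without BRSST+sgLuc replicate 1 or 4 or sgLuc replicate 1, 2 or 3 (up to 0.0865). Cd209d, a neighbour and relative of Cd209a, fell by 1.94 ± 0.53 with BRSST+sgEzh2 (limma adjusted p = 0.0454). That call was lost without any single BRSST+sgEzh2 array or sgLuc replicate 1, 2 or 4, with adjusted p up to 0.157. The mean of Cd209d with BRSST+sgEzh2 was 4.97, below the median of genes of other tissues. Whether probes of these relatives bind each other's transcripts was not tested.

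Of 16 genes of dendritic cell progenitors and of all dendritic cells, 6 fell and 1 rose with BRSST+sgLuc against sgLuc, and 3 fell and 1 rose with BRSST+sgEzh2 against sgLuc. Ly75, the endocytic receptor DEC-205, read 8.11, 8.30, 8.29 and 9.04 with BRSST+sgEzh2. It read 8.22, 8.34, 8.53, 8.31 and 8.29 with BRSST+sgLuc and 10.06, 10.09, 9.97 and 9.80 with sgLuc. No array with BRSST guides reached a sgLuc array, and BRSST+sgLuc replicate 2 did not stand out. Ly75 fell 2.92-fold with BRSST+sgEzh2 (limma adjusted p = 6.24e-05) and 3.12-fold with BRSST+sgLuc (limma adjusted p = 1.95e-05). Cx3cr1, the fractalkine receptor of monocytes and dendritic cell precursors, fell 3.56-fold with BRSST+sgEzh2 (-1.83 ± 0.29, limma adjusted p = 0.00178) and 5.41-fold with BRSST+sgLuc (-2.44 ± 0.28, limma adjusted p = 8.92e-05). Its mean with BRSST+sgLuc was 6.29, below the median of genes of other tissues.

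Of 18 genes of mature dendritic cells, 4 fell and 1 rose with BRSST+sgLuc against sgLuc, while 0 fell and 1 rose with BRSST+sgEzh2 against sgLuc. Il15, a cytokine that dendritic cells present to natural killer and T cells, and its receptor chain Il15ra moved in opposite directions with BRSST+sgLuc. Il15 fell 3.68-fold (-1.88 ± 0.33, limma adjusted p = 0.00231) and Il15ra rose 2.87-fold (1.52 ± 0.22, limma adjusted p = 0.000544). Il15ra rose 2.44-fold with BRSST+sgEzh2 as well (1.28 ± 0.23, limma adjusted p = 0.00408).

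Of 13 ligands and partners of the members, 3 fell and 1 rose with BRSST+sgLuc against sgLuc, and 1 rose and 0 fell with BRSST+sgEzh2. Itgb2, the integrin chain that pairs with Itgax, fell by 0.71 ± 0.17 with BRSST+sgLuc (limma adjusted p = 0.0133, and 0.0522 without sgLuc replicate 1). Csf2ra, a chain of the receptor for the dendritic cell growth factor GM-CSF, fell by 0.59 ± 0.11 (limma adjusted p = 0.00362). Xcl1, the ligand of Xcr1 made by natural killer and CD8 T cells, fell by 0.70 ± 0.20 (limma adjusted p = 0.0361), and its call was lost without BRSST+sgLuc replicate 1, 3 or 4 or any single sgLuc array (up to 0.0980). Jun, a partner of Batf3, rose with BRSST+sgEzh2 by 1.04 ± 0.29 and with BRSST+sgLuc by 0.95 ± 0.27 (limma adjusted p = 0.0478 and 0.0324), and lost its call in fits without 1 array. With BRSST+sgEzh2 these were BRSST+sgEzh2 replicates 2, 3 and 4 and sgLuc replicates 1, 2 and 3 (up to 0.152), and with BRSST+sgLuc they were BRSST+sgLuc replicates 1, 3 and 4 and the same sgLuc replicates (up to 0.0941).

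Of 24 relatives of the members, 7 fell with BRSST+sgEzh2 and 8 with BRSST+sgLuc, each against sgLuc. Batf, a close relative of Batf3, was the single one that rose, by 0.38 ± 0.11 with BRSST+sgLuc (limma adjusted p = 0.0368), a call lost without BRSST+sgLuc or sgLuc replicate 1, 2 or 4 (up to 0.121). The chemokine receptors Ccr9, Cx3cr1 and Ccr6 fell in both comparisons. Ccr9, which plasmacytoid cells carry, fell 7.06-fold with BRSST+sgEzh2 and 6.49-fold with BRSST+sgLuc (limma adjusted p = 4.31e-06 and 5.17e-06), as measured signals onto means of 5.30 and 5.42, below the median of genes of other tissues. Ccr6, of B cells and some dendritic cells, fell 2.59-fold with BRSST+sgEzh2 and 2.68-fold with BRSST+sgLuc (limma adjusted p = 0.000132 and 6.24e-05). Its means of 5.80 and 5.75 in these groups lay below that median too.

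Itgax lies beside 2 other integrin chain genes, Itgam (CD11b, of myeloid cells) and Itgad. Itgad fell by 0.92 ± 0.19 with BRSST+sgEzh2 (limma adjusted p = 0.00955) and by 0.72 ± 0.18 with BRSST+sgLuc (0.0158, and up to 0.0590 without sgLuc replicate 2 or 4). Its means of 5.22 with BRSST+sgEzh2, 5.41 with BRSST+sgLuc and 6.14 with sgLuc all lay below the median of genes of other tissues. That limits what its differences can show. Itgam fell by 0.48 ± 0.13 with BRSST+sgEzh2 (0.0417, and up to 0.141 without BRSST+sgEzh2 or sgLuc replicate 1, 2 or 3) and by 0.70 ± 0.12 with BRSST+sgLuc (limma adjusted p = 0.00195). The 2 nearest measured genes on each side of every member were 32 in all. Of these, 6 fell and 1 rose with BRSST+sgEzh2 and 4 fell and 0 rose with BRSST+sgLuc, each against sgLuc. Of all symbols, 2.39% fell and 2.77% rose in the first comparison, and 6.49% fell and 5.43% rose in the second. Of the neighbours that fell, all but Fcer2a also stand in a marker list. Itgam, Itgad, Cd209d, Clec12b and Olr1 are relatives of members and were counted above. Cox6a2, beside Itgax, is among the plasmacytoid genes counted below. The 1 that rose was Igfbp4, beside Ccr7, by 0.87 (limma adjusted p = 0.0161, and up to 0.0673 without BRSST+sgEzh2 replicate 2 or sgLuc replicate 1). Near Cd209a, Fcer2a, the low-affinity IgE receptor of B cells, fell 2.35-fold with BRSST+sgEzh2 and 2.16-fold with BRSST+sgLuc (limma adjusted p = 3.46e-05 and 5.61e-05).

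Near Clec9a, the lectin receptor gene Olr1 was the only relative to pass between BRSST+sgEzh2 and BRSST+sgLuc, where it rose 1.83-fold (0.87 ± 0.18, limma adjusted p = 0.0472). That call was lost without any BRSST+sgEzh2 array or without BRSST+sgLuc replicate 1, 4 or 5 (adjusted p up to 0.134). Against sgLuc it fell 2.08-fold with BRSST+sgLuc (limma adjusted p = 0.00205).

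Genes of some other cells differed between the same groups. Of 15 plasmacytoid dendritic cell genes 9 fell with BRSST+sgEzh2 and 11 with BRSST+sgLuc, each against sgLuc, and 0 rose. Their mean signal ranged from 8.01 to 8.76 with BRSST+sgEzh2, from 7.68 to 8.96 with BRSST+sgLuc and from 9.43 to 9.84 with sgLuc. Siglech, the surface lectin by which plasmacytoid cells are recognised, averaged 6.42 with BRSST+sgEzh2, 7.36 with BRSST+sgLuc and 10.93 with sgLuc. Its measured signal, close to the median of genes of other tissues with BRSST+sgEzh2, fell 22.9-fold with BRSST+sgEzh2 and 11.9-fold with BRSST+sgLuc (limma adjusted p = 0.000331 and 0.001).

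Of 10 genes of MHC class II presentation, 1 fell with BRSST+sgEzh2 and 4 with BRSST+sgLuc, each against sgLuc. Ciita, their master activator, fell by 0.92 ± 0.22 with BRSST+sgEzh2 (limma adjusted p = 0.0236), and the call was lost without BRSST+sgEzh2 replicate 1, 2 or 4 or sgLuc replicate 1 or 3 (up to 0.0793). H2-DMb2, a chain of the peptide loading factor, fell 2.56-fold with BRSST+sgLuc (limma adjusted p = 0.0108). Their mean signal ranged from 8.99 to 10.74 with BRSST+sgEzh2, from 9.05 to 10.80 with BRSST+sgLuc and from 10.70 to 10.94 with sgLuc, so these groups overlapped.

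Among 18 genes of monocytes and macrophages, 3 fell and 1 rose with BRSST+sgEzh2 and 7 fell and 1 rose with BRSST+sgLuc, each against sgLuc. Their mean ranged from 8.50 to 9.34 with BRSST+sgEzh2, from 8.22 to 9.05 with BRSST+sgLuc and from 9.15 to 9.26 with sgLuc. Between the BRSST groups, Mpeg1, a pore-forming protein of macrophages and dendritic cells, rose 2.60-fold with BRSST+sgEzh2 (limma adjusted p = 0.0313). It did not pass without replicate 1, 3 or 4 of BRSST+sgEzh2, nor without replicate 1, 4 or 5 of BRSST+sgLuc (up to 0.134). Csf1r, the receptor for the macrophage growth factor, was higher by 0.84 ± 0.19 and did not pass (limma adjusted p = 0.0606). It passed when replicate 2 (0.0197) or replicate 3 (0.0198) of BRSST+sgLuc was left out. Without other single arrays its limma adjusted p ran up to 0.217.

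Of 14 B lineage genes, 2 fell with BRSST+sgEzh2 and 12 with BRSST+sgLuc, each against sgLuc, and of 9 natural killer cell genes 1 fell with BRSST+sgEzh2 and 5 with BRSST+sgLuc. The mean of the B lineage genes ranged from 6.98 to 9.20 with BRSST+sgEzh2, from 6.76 to 8.79 with BRSST+sgLuc and from 9.12 to 10.30 with sgLuc. That of the natural killer cell genes ranged from 5.95 to 8.21 with BRSST+sgEzh2, from 6.09 to 8.24 with BRSST+sgLuc and from 8.06 to 8.90 with sgLuc. With BRSST+sgEzh2 and then BRSST+sgLuc, 0 and 5 of 11 T cell genes fell, of 8 basophil and mast cell genes 5 and 6, of 11 stem and progenitor cell genes 0 and 3, and of 13 neutrophil genes 1 and 4, while 1 neutrophil gene rose in each. Of 9 erythroid genes 0 and 3 rose. Of 25 genes of other tissues, 1 fell with BRSST+sgEzh2 and 0 with BRSST+sgLuc. The part of any of these cells in the fall of Clec9a, Itgax and Cd209a was not tested.

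**Figure D4:**
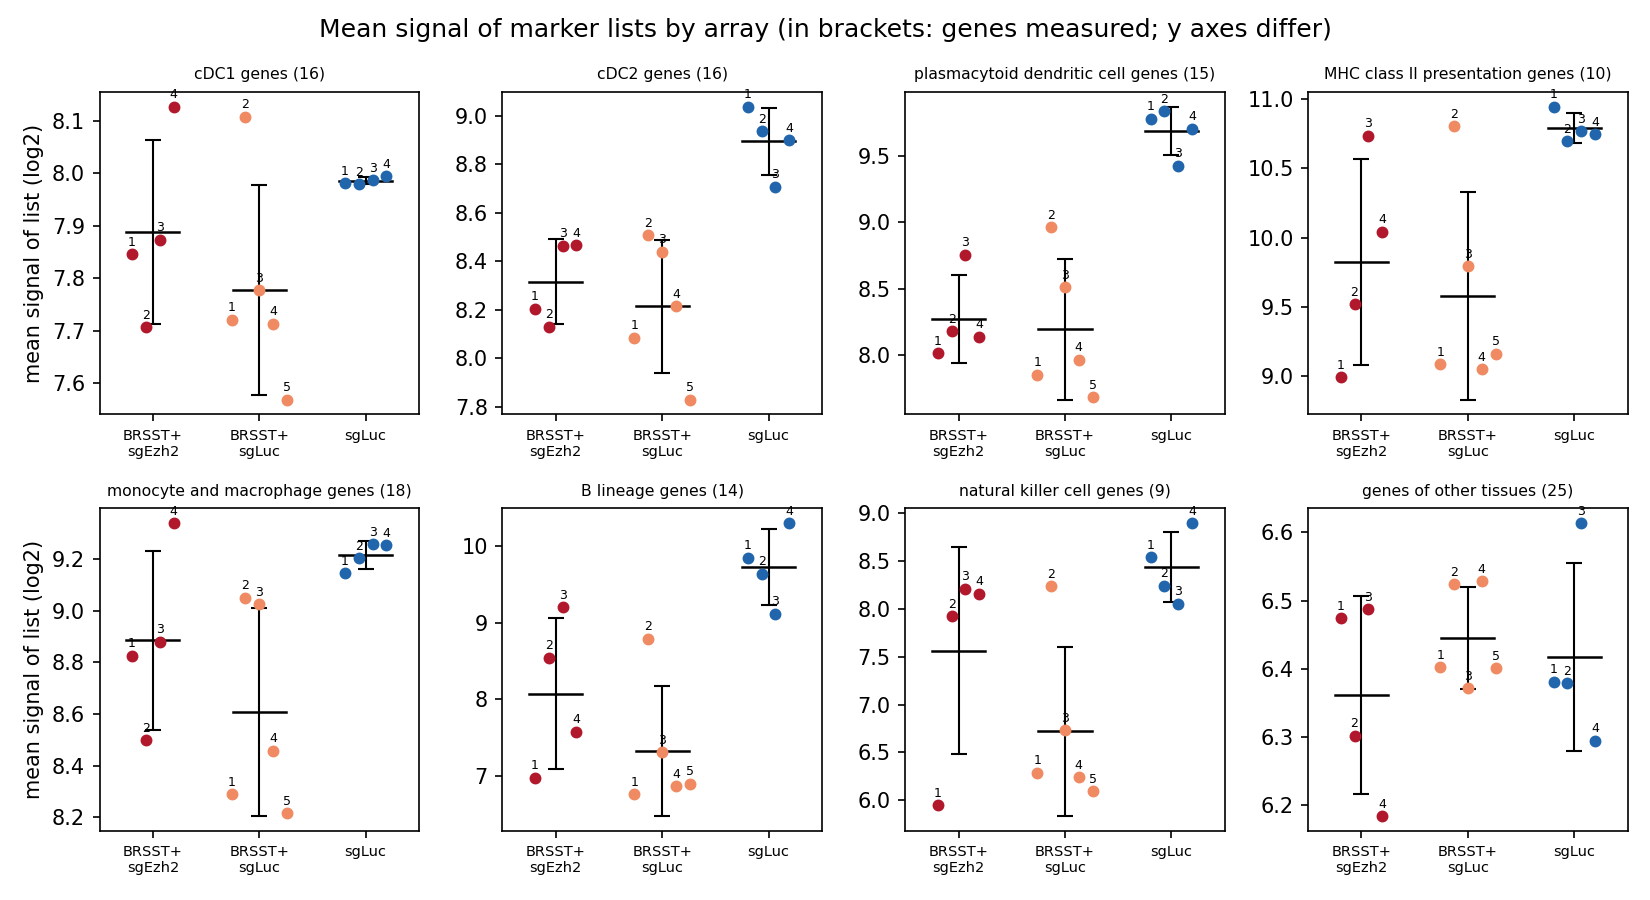
Mean log2 signal (y axis, a range of its own in each panel) of 8 marker lists on each array, with replicate numbers, the mean and the SD. The plasmacytoid and cDC2 means of all sgLuc arrays lie above all arrays with BRSST guides, and the cDC1 mean of BRSST+sgLuc replicate 2 and of BRSST+sgEzh2 replicate 4 lies above every sgLuc array.

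The symbols whose signal followed each member most closely over the 13 arrays were found by Pearson correlation among symbols above the array median in at least 4 arrays. Members, and symbols that start with Gm and a digit or end in Rik, were left out. For Itgax they were Cyb561a3, Il1rn and Mov10 (r = 0.97, 0.96 and 0.96), for Clec9a Ifi207, Gsap and Ankrd22 (0.96, 0.96 and 0.96) and for Cd209a Tbxas1, Ifi204 and Igsf8 (0.96, 0.95 and 0.95). These follow the groups in part: once group means were removed, the first of each had 0.79, 0.90 and 0.88. For Xcr1 they were Timp2, S100a6 and Ostf1 (0.92, 0.91 and 0.89), and for Batf3 Ghdc, Timp2 and Sp110 (0.89, 0.87 and 0.86), so Timp2 was named for both.

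For Zbtb46 they were Lpl, Cyb5rl and Tfcp2l1 (0.92, 0.91 and 0.89), for Ccr7 Sh3bp4, H2al2a and Marchf10 (0.93, 0.93 and 0.92) and for Flt3 Xpot, Fbxo21 and Sdr39u1 (0.89, 0.87 and 0.84). With 13 arrays and a search that drew on the 10601 symbols above that median, high correlations turn up for any gene. These are given as a description.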

How the data were processed

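RNA of mouse marrow from 13 samples was hybridised to Affymetrix arrays. Per the labels' protocols, 2 ng of RNA was amplified with 10 PCR cycles, which can compress differences. The deposited log2 signals came from the authors' use of oligo in R 3.5.01, per the submitters' processing notes. How background was corrected and arrays were normalized was, in the sources used here, not given, and the log2 scale was read from the values (3.23 to 13.75). The number of arrays limits the precision.

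The table's 22203 rows held 19572 with 1 symbol and 2631 without, and names were checked by Entrez number in a RefSeq table (GRCm38.p6), which also gave neighbours. Where a symbol had several rows (55 symbols), the one of highest mean stood for it. Groups came from the labels. The test was limma's (version 3.58.1, R 4.3.3; lmFit, eBayes), in 1 fit over 13 arrays and all 19505 symbols, with Benjamini-Hochberg adjustment and a threshold of 0.05. Every adjusted p is from limma unless named otherwise. No filter on low signals was used, because 2 of the 8 members, Xcr1 and Clec9a, did not lie above the array median in at least 4 arrays and 6 did. Each member also had an exact two-sided permutation test (SciPy 1.17.1), adjusted over 24 tests.

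The members, the 17 marker lists and the tests were chosen with earlier results of these data known. Named genes are all members, up to 3 changed genes of largest change per list and comparison or else the one of smallest p, and the 3 symbols most like each member. Not every gene so taken is described. Wdfy4, Nfil3, Clec10a, Csf2ra, Itgam, Itgad, Batf, Tlr3, Cadm1, Flt3l, Fcer2a and Igfbp4 were named outside that rule, after their values were seen. So were Irf8, Ccr6 and Cd4 for BRSST+sgEzh2 against sgLuc and Olr1 for BRSST+sgLuc against sgLuc. Some genes stand in more than 1 list.

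Alternatives were 2 filters on low signals (above the array median or its 75th percentile in at least 4 arrays), equal medians, quantile normalization, row means, array quality weights, trended and robust variance, only the 2 groups compared, the replicate number as a block, the Y-linked class as a covariate, and each array left out. On simulated data of 19505 genes, 86%, 86% and 83% of genes changed by log2 1 were recovered in the comparison of the BRSST groups, of BRSST+sgLuc with sgLuc and of BRSST+sgEzh2 with sgLuc, with 7.5%, 4.12% and 4.69% of calls false. Each simulated gene had the same SD in all groups. Recovery may be lower for Cd209a and Clec9a, whose SDs within BRSST+sgLuc exceeded those of 99.3% and 99.4% of symbols. Plots used matplotlib 3.10.9 (Python 3.11.15).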

Additional observations from a re-analysis of the deposited data

Results flagged for a closer look

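In each group of 4 or 5 arrays, the highest and lowest signal of every member was set against its nearest neighbour, and 3 of 24 groups had 1 array that stood apart. Chance gives about 1 in 20. Cd209a read 9.18 on BRSST+sgEzh2 replicate 2, where the next array of the group read 8.21. Xcr1 read 6.16 on BRSST+sgEzh2 replicate 4, where the next read 5.45. Zbtb46 read 7.56 on sgLuc replicate 3, where the next read 7.11. BRSST+sgLuc replicate 2, which carried the highest Clec9a, Xcr1, Cd209a and Batf3 of its group, did not stand apart by this measure. The measure sets the gap to the next array against the range of the group. In log2, the gaps of BRSST+sgLuc replicate 2 were 1.69 for Clec9a, 1.42 for Xcr1, 0.70 for Cd209a and 0.68 for Batf3. The flagged Xcr1 array had a gap of 0.71. That it was not flagged therefore does not make it a typical array of its group.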

How the results depend on the processing

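With single arrays left out, 3 of 8 members passed for BRSST+sgLuc against sgLuc in every fit, 2 of 8 for BRSST+sgEzh2 against sgLuc and 0 of 8 between the BRSST groups. The first count was 2 under the median filter, which drops Clec9a, and 1 under the filter at the 75th percentile, which drops Clec9a and Itgax and leaves the call of Cd209a. The second was 1 under either filter, Itgax under the median filter and Cd209a under the filter at the 75th percentile. The latter drops both genes that passed in the main fit, Clec9a and Itgax. The second count was 4 with array quality weights or only the 2 groups. No call of a member that was tested was lost. For BRSST+sgEzh2 against sgLuc, Cd209a gained a call under 4 settings and Batf3 under 2 of these. The settings for Cd209a include the filter at the 75th percentile, which it clears only because of its high sgLuc signals.

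Over all genes, 128 passed for BRSST+sgEzh2 against BRSST+sgLuc. It was 83 and 36 under the median and the stricter filter, 82 with equal medians, 409 with array weights, 59 with the replicate block, 214 with the Y-linked class and 40 with 2 groups. It ran from 43 to 350 with single arrays left out, with 43 without BRSST+sgEzh2 replicate 4 and 55, 273, 350 and 62 without BRSST+sgLuc replicates 1, 2, 3 and 4. For BRSST+sgLuc against sgLuc 2325 passed, 4597 with array weights and 1396 to 2769 with single arrays left out (1396 and 1514 without sgLuc replicates 1 and 2). For BRSST+sgEzh2 against sgLuc 1007 passed, 2492 with array weights, 1682 with 2 groups and 572 to 907 with single arrays left out (572 and 633 without sgLuc replicates 1 and 2). The cause was not tested.

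Signs turned only where a member did not pass. Between the BRSST groups, Xcr1 turned to 0.0769 (-0.454 to 0.0769 with single arrays left out) and Clec9a to 0.0806 (-0.562 to 0.0806) without BRSST+sgLuc replicate 2. Flt3 turned to 0.174 with array weights, 0.192 with the replicate block and 0.0115 with the Y-linked class (-0.271 to 0.192). For BRSST+sgLuc against sgLuc, Xcr1 turned to 0.0343 with the block (-0.468 to 0.0343), and Zbtb46 ran from -0.0299 to 0.145. Ccr7 turned to 0.0153 with quantile normalization, 0.0087 with equal medians, 0.0402 with weights, 0.0308 with the block and 0.009 with the Y-linked class (-0.0989 to 0.0672). Flt3 turned to -0.0799 with weights, -0.0756 with the block and -0.0824 with the Y-linked class (-0.0756 to 0.387). For BRSST+sgEzh2 against sgLuc, Zbtb46 turned to 0.0206 with weights (-0.172 to 0.0194) and Flt3 to -0.0709 with the Y-linked class (-0.0398 to 0.210). Of other named genes, Olr1, Mpeg1, Naaa, Xcl1, Id2, Cd209d, Jun, Ciita, Itgam, Clec10a and Batf lost a call under a setting other than leaving out 1 array, with limma adjusted p from 0.0513 to 0.159.

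Samples that share a replicate number did not deviate together: their correlation ran from -0.23 to 0.22 over 12 pairs, and from -0.34 to 0.37 over 44 other pairs. The number was therefore taken as a name. Under the block, which leaves BRSST+sgLuc replicate 5 without a partner, Cd209a passed for BRSST+sgEzh2 against sgLuc (limma adjusted p = 0.0325). Signals near those of genes of other tissues limit what Xcr1, and the low values of Clec9a and Itgax, can show. The means of Zbtb46 and Flt3 also lay within the range of those genes, which limits what their lack of a difference can show.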
